A study of Homo sapiens with 6 samples.

Results

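The transcripts described here are annotated as retained_intron, a class of spliced RNA from a known gene that keeps intron sequence and is given no open reading frame. Members were chosen by their annotated class and selected on their mean level over the 6 libraries, with a minimum of 1 RPKM (reads scaled by transcript length and library size). This left 9350 of the 27255 retained_intron transcripts in the table, in 4803 genes, and of the 207167 transcripts in all 54671 passed the same minimum. The 12245 protein_coding transcripts of the same genes that passed it served for comparison.

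RNA-seq was done on rRNA-depleted total RNA of HEK293T-Rex cells, a human embryonic kidney line with a tetracycline repressor, which the labels call HEK293. D391N cells (3 libraries) carried a stably integrated, doxycycline-induced construct of DIS3L2 D391N, a catalytically inactive form of the 3′ to 5′ exonuclease DIS3L2, and were compared with control cells without it (3 libraries, labelled control). Whether the control cells received doxycycline is not given in the sources used here. Each condition came from 1 line, so that the construct and the line cannot be told apart, and nothing says that the 3 libraries of a condition were separate cultures, so that p-values measure only the spread between these libraries. Where 3 values of a condition are given, they stand in the order of replicates 1, 2 and 3.

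Introns are removed from nuclear pre-mRNA by the spliceosome, which recognises a donor site that begins with GT and an acceptor site that ends with AG. A transcript that keeps an intron may be a processing intermediate, may be detained in the nucleus, or may reach the cytoplasm, where a premature stop codon can direct it to nonsense-mediated decay. DIS3L2 degrades RNAs with an oligo(U) tail in the cytoplasm, and an exonuclease-dead form can bind such RNAs without degrading them. The comparison of the lines asks whether transcripts of a class change when inactive DIS3L2 is present in excess.

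Most of the members that the results turn on do not span an intron but run from an exon across 1 splice site and stop, or begin, inside the intron. The windows below show 30 bases around that site for the 3 members that passed the test (DIS3L2, RANBP1 and ANXA6), for 3 more with separate conditions and for the most abundant member, of RPL23A. Coordinates are of GRCh37, the transcript's strand is printed 5′ to 3′, and the 2 capitals mark the first (GT) or last (AG) bases of the intron, which the member includes.
DIS3L2 ENST00000464554 (chr2:232952422-232952451, + strand): tctgagaaagGTgagtactagactattgtc
RANBP1 ENST00000411892 (chr22:20112950-20112979, + strand): aatgctgagaGTgagccaagggccctgggg
CBLL1 ENST00000487517 (chr7:107395927-107395956, + strand): tgtgtccaggGTaagataagattatcatta
ETFDH ENST00000507475 (chr4:159618842-159618871, + strand): tggtcttgtgGTaagttatattcccattag
RPL23A ENST00000582736 (chr17:27047899-27047928, + strand): ggagaaacaaGTcagtactgccccctgtac
ANXA6 ENST00000520054 (chr5:150507791-150507820, - strand): ctttctttctttctcttcAGaatgacacct
KRT8 ENST00000549176 (chr12:53295847-53295876, - strand): ctctctcctccttcgtatAGgtacggttcc

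The intron begins with GTGAGT in DIS3L2, with GTAAGA in CBLL1 and with GTAAGT in ETFDH, and the windows of ANXA6 and KRT8 hold a pyrimidine-rich run before AG. The member of DIS3L2 includes 123 of the 42897 bases of its intron, that of RANBP1 52 of 866 and that of ANXA6 132 of 1167. For ETFDH 728 of 1287 intron bases are included, and for RPL23A 371 of 1832.

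A smaller group of members spans whole introns, and 2 of them, both of EEF1A1, the elongation factor that brings aminoacyl-tRNA to the ribosome, gave opposite values below. ENST00000490569 holds intron 6 of 7 (89 nt, chr6:74227988-74228076, - strand) and ENST00000488500 holds intron 4 of 7 (83 nt, chr6:74228572-74228654, - strand), with introns numbered in ENST00000356303. ENST00000490569 also begins inside an intron, and 19.8% of its 2177 bases lie outside exons of the gene's coding transcripts. Intron 6 is only a small part of these. For ENST00000488500, which begins and ends in exons, 4.55% of 1825 bases do. The 2 members thus differ by more than which intron they hold. The donor and acceptor windows are given with GT and AG in capitals.
ENST00000490569 donor: cactgctcagGTaacaatttaaagtaacat
ENST00000490569 acceptor: atgcaaatcttttttccaAGgtgattatcc
ENST00000488500 donor: aagtgctaacGTaagtggctttcaagacca
ENST00000488500 acceptor: ttggcatgcttgtgtttcAGatgccttggt

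Another kind holds an intron that is itself the source of a small RNA. The member ENST00000474171 of RPL13A, a protein of the large ribosomal subunit, includes intron 5 of 7 of ENST00000467825 (175 nt, GRCh37 chr19:49994122-49994296, + strand). SNORD34, a C/D box snoRNA of 71 nt, is marked in capitals, with 39 intron bases before it and 65 after.
RPL13A intron: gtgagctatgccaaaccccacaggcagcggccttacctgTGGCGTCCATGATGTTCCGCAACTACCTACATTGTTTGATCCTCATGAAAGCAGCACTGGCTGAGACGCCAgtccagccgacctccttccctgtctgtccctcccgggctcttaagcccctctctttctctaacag

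The labels were checked on DIS3L2, whose construct adds reads to the gene. Summed over its transcripts, DIS3L2 was at 369, 467 and 512 RPKM with the construct and 11.8, 12.9 and 14.6 RPKM without it, 449 ± 73.0 against 13.1 ± 1.40 RPKM (SD, n = 3; log2 ratio of means 5.10; exact permutation test, two-sided, p = 0.10, the smallest that 3 against 3 allows). Of the line's lineage markers, NEFL (26.9 to 88.0 RPKM), VIM, KRT8 and KRT18 were detected, whereas NEFM (0.24 to 0.64 RPKM) was below and PAX2 (1.31 to 1.93 RPKM) overlapped the leukocyte gene PTPRC (1.34 to 1.77 RPKM), and ALB was at 0.60 to 1.13 and HBB at 2.14 to 7.12 RPKM. D391N replicates 1 and 2 stand apart. Without D391N replicate 1, 4961 of the 54671 transcripts passed the threshold in place of 33, and D391N replicate 2 had the highest summed level of the members.

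Members were short and less spliced than the coding transcripts of their genes, with a median length of 760.5 nt and 3 exons against 1759 nt and 8 exons. Of the 9350 members, 9182 lay in 4690 protein-coding genes and 154 in 104 lncRNA genes. A single member was found in 2481 genes, 2 in 1197 and 3 or more in 1125. RBM39, EIF4A2, HNRNPH1 and GAS5 had 14 members each, and DDX5 had 11.

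For 9139 members a coding transcript of the gene was annotated, and a median of 40.6% of their bases (quartiles 22.3% and 59.1%), or 315 bases, lay outside its coding-transcript exons. The first base lay in an intron for 4360 members (47.7%) and the last base for 4237 (46.4%), and for 917 both did. A whole intron was held by 2338 members (25.01% of 9350), 1541 with 1 intron and 797 with 2 or more, up to 13. At least 1 end lay in an intron for 7680 members, as in the windows of RANBP1 and ANXA6, and some members had neither an intronic end nor a whole intron.

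The 3567 distinct introns held whole were short, with a median of 330 nt (quartiles 151 and 793) against 1009 nt (290 and 2637) for the 19122 other introns of the same coding transcripts. Last introns made up 12.6% of the held and 7.72% of the other introns, and first introns 11.2% and 8.46%. Of the held introns, 3483 (97.6%) began with GT and ended with AG, 70 (1.96%) were GC-AG and 7 were AT-AC, the ends of many introns removed by the minor spliceosome. Their median GC content was 48.8% (quartiles 38.3% and 58.4%). These values describe the annotation of the members and do not depend on the comparison of the lines.

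**Figure D1:**
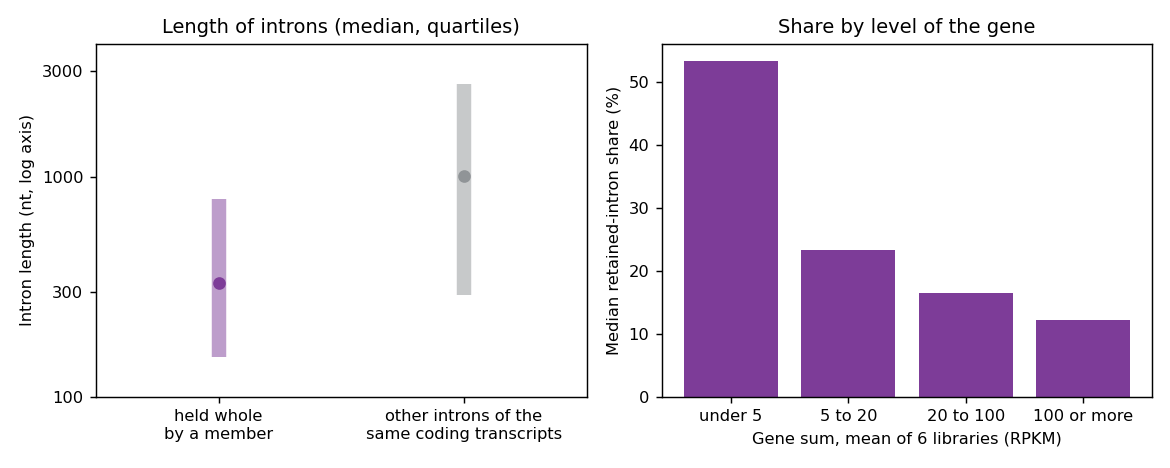
The left panel gives intron length in nt on a log axis (point, median; bar, quartiles) for introns held whole by a member and for other introns of the same coding transcripts, at 330 and 1009 nt. The right panel gives the median retained-intron share of the gene sum in percent by the mean level of the gene in RPKM, which goes from 53.4% in the lowest to 12.2% in the highest genes.

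The level of the members was low. Their median was 2.48 RPKM (quartiles 1.51 and 5.05), against 4.20 RPKM (2.0004 and 10.4) for the protein_coding transcripts of the same genes. Because the members were selected on this level, the lower quartile lies close to the limit. Just inside it were ENST00000489327 of AAK1, a kinase of clathrin adaptors, and ENST00000549307 of OS9, both at a mean that rounds to 1 RPKM, and just outside it ENST00000522625 of DCTN4 and ENST00000483984 of BAP1, at 0.9999 and 0.9997 RPKM.

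The reads behind each value, taken as the inverse of its posterior variance, had a median of 20.8 to 35.3 per member and library. This number also falls where reads are assigned uncertainly between isoforms, so it is not a count of reads. Folds given against a floor of 3 such reads are therefore approximate and not strict bounds. An average of at least 10 reads was reached by 7487 members (80.1%), and 7019 had at least 3 in every library. The spread between libraries was wider in D391N, with a median within-condition SD on the log2 scale of 0.59 against 0.30 in the control. For the coding transcripts of the same genes it was 0.59 and 0.31.

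Relative to their genes, members were not minor. The retained_intron share of the gene sum, over 4803 genes and in RPKM, had a median of 20.1%, 21.7% and 18.3% in D391N cells and of 18.9%, 19.8% and 19.4% in the controls. These are 20.01% ± 1.70 and 19.4% ± 0.437 (SD, n = 3 libraries), and the control values lie within the range of the D391N values. The protein_coding share was 46.4% ± 2.92 and 49.3% ± 0.766. A member was the most abundant transcript of its gene in 25.3% to 31.4% of genes, and a protein_coding transcript in 45.3% to 54.2%. RPKM counts molecules, and weighting by transcript length gives a median share of reads of 13.3%.

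**Figure D2:**
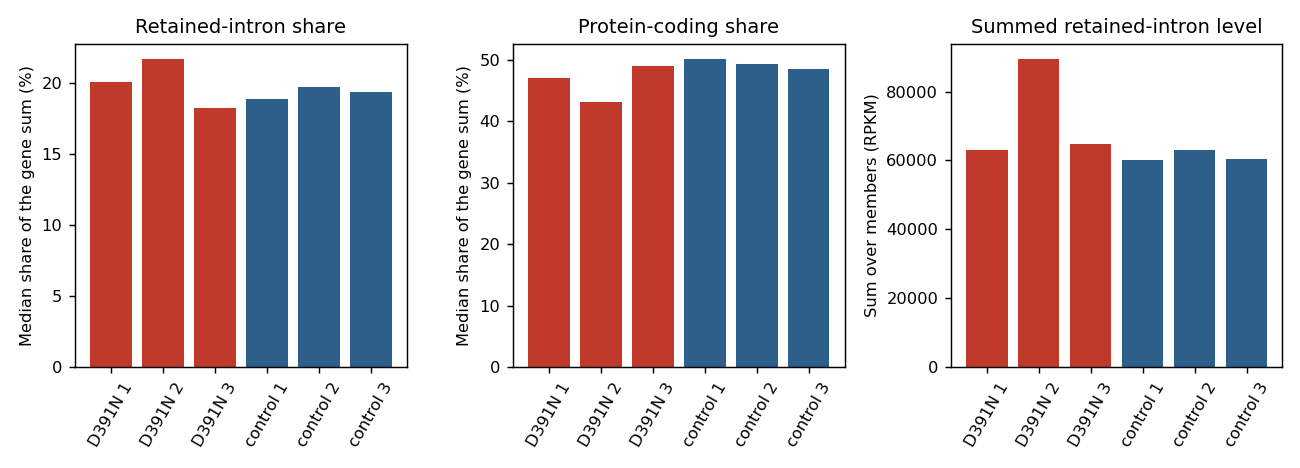
Bars give, for each of the 6 libraries, the median retained-intron share and protein-coding share of the gene sum in percent and the level summed over the 9350 members in RPKM. The retained-intron share lies between 18.3% and 21.7%, and D391N replicate 2 has both the highest share and the highest sum, 89341 RPKM.

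The share was largest in genes of low level, at a median of 53.4% in 327 genes under 5 RPKM, 23.4% from 5 to 20 RPKM, 16.4% from 20 to 100 RPKM and 12.2% in the 649 genes of 100 RPKM or more. Under the selection of members by level, a gene under 5 RPKM enters only where a member holds a sizeable part of it. The share exceeded 50% in 678 genes (14.1%) and 90% in 53, and was under 10% in 1229 (25.6%).

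Among genes of at least 20 RPKM, members made up nearly all of the estimated level of LTBR, ADAMTSL3 and TMEM45A. ENST00000440421 of LTBR, the lymphotoxin beta receptor, was at 47.2, 52.7 and 20.6 RPKM in D391N cells and 22.3, 32.8 and 30.9 RPKM in control cells. ENST00000569510 of ADAMTSL3, an extracellular matrix protein, was at 64.7, 118 and 77.3 RPKM against 59.4, 65.4 and 66.3 RPKM. ENST00000489060 of TMEM45A was at 73.6, 62.6 and 66.3 RPKM against 78.3, 87.9 and 70.4 RPKM. The retained_intron share of these genes was between 97.0% and 99.0% in every library. A further member, ENST00000366527 of the hnRNP gene HNRNPU, takes 100% only because the table lists it under a gene identifier of its own (ENSG00000188206), with no coding transcript.

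Few members differed between the lines. At an adjusted p under 0.05 (limma, Benjamini-Hochberg over all 54671 transcripts), members of DIS3L2 and RANBP1 were higher and 1 of ANXA6 was lower in D391N, 3 of 9350 against a background of 0.0604% of all transcripts (33). At an unadjusted p under 0.05 there were 1308 members (13.99%), 592 higher and 716 lower, against 17.6% of all transcripts and 20.1% of the protein_coding transcripts of the same genes. Each D391N library lay above each control for 911 members (9.74%, background 10.1%) and below for 1127 (12.1%, background 15.6%). A change over 2-fold was estimated for 20.2% of members, 27.3% of the coding transcripts of the same genes and 24.0% of all transcripts. None of these shares of the members was above its background.

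The count of 3 depended on single libraries: 689 members passed without D391N replicate 1 (341 higher, 348 lower), 2 without D391N replicate 2, and none without D391N replicate 3 or without any 1 of the controls (762 to 1325 at an unadjusted p under 0.05). With 10 reads or fewer behind many values, absence of a call does not show that a member did not change.

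As a group, members were level. Their median log2 fold change was 0.00 (4681 higher, 4669 lower), beside -0.07 over all transcripts and -0.08 over the protein_coding transcripts of the same genes. Their median deviation from the 6-library mean was 0.01, 0.18 and -0.12 in D391N cells and -0.01, 0.11 and -0.06 in the controls, so that the D391N values enclose those of the controls. The summed level was 62952, 89341 and 64663 RPKM against 59997, 62936 and 60467 RPKM, or 72319 ± 14767 and 61133 ± 1579 RPKM (SD, n = 3). The sums of D391N replicates 1 and 3 were next to the highest control, and replicate 2 was far above all others. Summed over all tested transcripts, the level was 1.16e+06, 706675 and 860706 RPKM in D391N and 1.25e+06, 1.17e+06 and 1.20e+06 RPKM in the controls. D391N replicates 2 and 3 thus differed from the other libraries as a whole. In bulk RNA, fewer copies per cell and fewer cells with a transcript cannot be told apart.

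The ratio of the summed members to the summed protein_coding transcripts, 1 value per gene, tests their change against each other. Over 4364 genes its median log2 change was 0.11 (2446 higher, 1918 lower), the same as the 0.11 over all 10937 ratios tested, with 0.13 for transcripts of coding genes without a defined coding sequence and 0.07 for nonsense_mediated_decay transcripts. By library the median deviation was 0.04, 0.24 and -0.14 in D391N and -0.10, -0.01 and -0.03 in the controls, and leaving out D391N replicate 2 gave a median change of 0.0033 and leaving out replicate 3 one of 0.19. RANBP1 was the only gene past the threshold for the ratio of members, against 0.0183% of all ratios (2 of 10937), and it was lost (0 genes) on leaving out D391N replicates 2 or 3 or any 1 of the controls, while 258 genes passed without D391N replicate 1. At an unadjusted p under 0.05 there were 590 genes (13.5%; 367 higher, 223 lower) against 16% of all ratios.

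Members differed among themselves by how much of their sequence lay outside coding-transcript exons, which other non-coding isoforms of the gene may share. Where under 25% of the bases lay outside coding-transcript exons (2616 members), 32.8% had an estimated change over 2-fold. From 25% to 50% it was 22.02% (3133 members), from 50% to 75% 10.2% (2540) and from 75% 4.82% (850). The share at an unadjusted p under 0.05 was 21.7%, 15.03%, 8.03% and 4.82% in the same order. Members mostly outside coding-transcript exons therefore varied least between the lines. Such bases lie in introns or beyond the span of the coding transcripts. The shares over 2-fold were 42.6%, 31.7%, 17.1% and 7.65% without D391N replicate 1 and 25.2%, 15.2%, 7.76% and 2.71% without D391N replicate 2, with the order kept. The reads behind a value moved along, with medians of 19.4, 23.1, 34.6 and 76.6, and so did median length, at 697, 718, 782.5 and 2020 nt.

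Among members of 2 to 5 RPKM the order was the same, with 33.3%, 20.5%, 10.1% and 3.98% over 2-fold, at 14.7, 23.8, 38.4 and 101 reads. The part of read number and of the sharing of reads between overlapping isoforms in this order was not tested. The 850 members with at least 75% of bases outside coding-transcript exons also moved together by library. Their median deviations were 0.07, 0.30 and -0.26 in D391N and -0.05, 0.08 and -0.10 in the controls. Their spread between D391N replicates 2 and 3 exceeded that of the members as a whole, and the conditions overlapped.

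**Figure D3:**
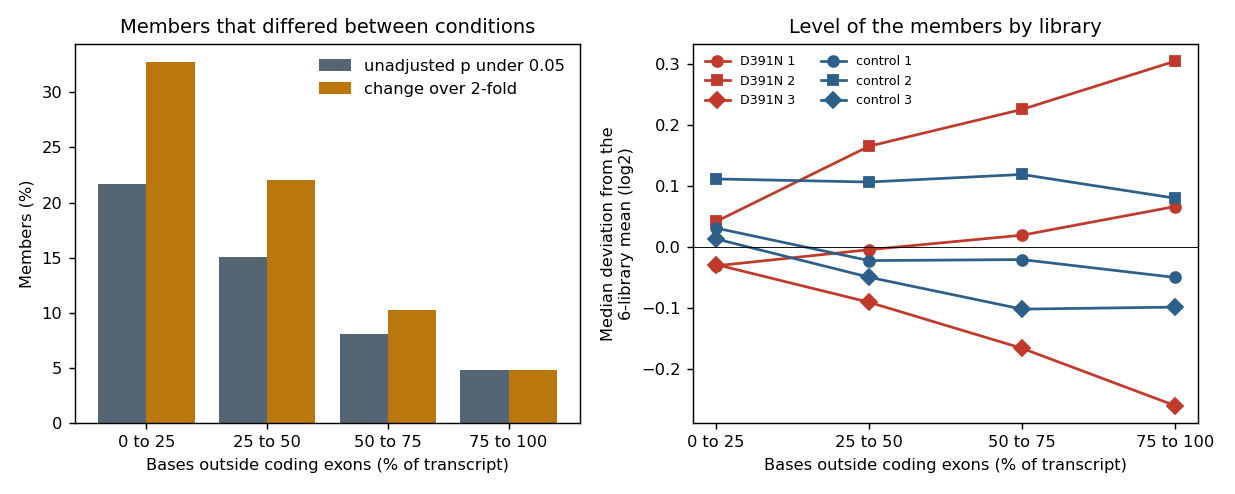
Left, percent of members at an unadjusted p under 0.05 and with an estimated change over 2-fold, by the percent of their bases outside coding-transcript exons, falling from 32.8% to 4.82% for the change over 2-fold. Right, the median deviation of the same members from the 6-library mean (log2) in each library, which spreads with that percent. From 25% upward D391N replicates 2 and 3 lie at opposite ends.

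The member that differed most came from the gene of the construct. ENST00000464554 of DIS3L2 (chr2:232880311-232952554, + strand; 4 exons) was at 88.2, 209.9 and 247 RPKM in D391N cells and 0.475, 0.800 and 0.648 RPKM in control cells (log2 fold change 7.83 ± 0.43, adjusted p = 0.00600, limma). The conditions did not overlap, and each control had under 3 reads by the inverse of the variance. Against a floor of 3 such reads per library the member was about 152-fold higher. It made up 23.9, 44.99 and 48.2% of the gene sum in D391N cells and 4.02, 6.19 and 4.45% in control cells. Only 21.0% of its bases lie outside coding-transcript exons, and elsewhere reads of the construct and of this transcript cannot be told apart. For the ratio to the coding transcripts of the gene the adjusted p was 0.0839 (4.54 ± 0.56, log2).

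ENST00000411892 of RANBP1 (chr22:20105080-20113011, + strand), a protein that assists GTP hydrolysis by Ran in nuclear transport, was at 89.2, 369 and 132 RPKM in D391N cells and 0.897, 1.88 and 1.47 RPKM in control cells (log2 fold change 6.81 ± 0.56, adjusted p = 0.0290). All D391N libraries were above all controls, replicate 2 highest, and the controls had 1.52, 3.94 and 1.54 reads. The main coding transcript, ENST00000331821, was at 137, 128 and 96.03 RPKM against 115, 133 and 128 RPKM (log2 fold change -0.07). The retained_intron transcripts of RANBP1 together made up 34.2, 33.7 and 45.5% of the gene sum in D391N cells and 1.62, 2.96 and 2.49% in control cells (log2 ratio change 4.52 ± 0.41, adjusted p = 0.0471). A further coding transcript, ENST00000421656, was at 0.920, 592 and 35.5 RPKM against 1.74, 1.15 and 1.78 RPKM (log2 fold change 4.10, adjusted p = 0.344) and the gene sum at 268, 1108 and 293 RPKM against 149, 169 and 162 RPKM, both highest in D391N replicate 2. Only 52 bases of the member, in its printed intron, lie outside coding-transcript exons.

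ENST00000520054 of ANXA6 (chr5:150501782-150507932, - strand), a calcium-dependent membrane-binding annexin, was the 1 member that passed the threshold as lower. It was at 0.356, 0.218 and 0.324 RPKM in D391N cells and 4.08, 4.43 and 4.61 RPKM in control cells (log2 fold change -3.50 ± 0.34, adjusted p = 0.0479). The controls had 5.94 to 8.70 reads and the D391N libraries under 1, and against a floor of 3 reads it was about 3.11-fold lower. The coding transcript ENST00000354546 was at 10.01, 8.56 and 8.83 RPKM against 19.7, 18.99 and 19.9 RPKM (log2 fold change -1.09, adjusted p = 0.114), also without overlap. The retained_intron transcripts of ANXA6 together made up 5.17, 29.4 and 17.05% of the gene sum in D391N cells and 12.4, 16.98 and 17.6% in control cells. The ratio to the coding transcripts changed by 0.20 ± 0.69 (log2, adjusted p = 0.905). The summed coding transcripts were themselves lower in D391N (log2 -0.71), so this ratio does not show whether the gene's members together fell.

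These calls depended on few libraries. Adjusted p was over 0.05 for DIS3L2 (0.0628 to 0.0898) and RANBP1 (0.0951 to 0.219) without D391N replicate 3 or without any 1 of the controls. For ANXA6 without D391N replicates 2 and 3 in turn it was 0.0679 and 0.0951, and 0.219 to 0.297 without a control, and 0.0524 after median centring.

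Of the members of at least 5 RPKM whose conditions did not overlap, the next by p that were higher in D391N belonged to RAB8A, CBLL1 and ETFDH, and none passed the threshold. ENST00000587156 of RAB8A, a small GTPase of vesicle transport, was at 29.8, 68.3 and 33.6 RPKM in D391N cells and 3.90, 4.85 and 4.19 RPKM in control cells (log2 fold change 3.22 ± 0.36, adjusted p = 0.0628). Each control had under 3 reads, and against a floor of 3 reads this member was about 4.96-fold higher. The main coding transcript of RAB8A, ENST00000586682, was at 36.7, 31.6 and 45.8 RPKM against 51.9, 52.5 and 47.6 RPKM. The member ENST00000587156 was near the coding transcript in D391N replicates 1 and 3, above it in replicate 2 and far below it in the controls. Another RAB8A member, ENST00000592971, was at 19.3, 3.58 and 15.8 RPKM against 19.7, 14.7 and 18.2 RPKM (log2 fold change -0.75, adjusted p = 0.553). It was lowest in D391N replicate 2, where ENST00000587156 was highest.

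ENST00000487517 of CBLL1, an E3 ubiquitin ligase that is also bound to the m6A methyltransferase complex, was at 17.4, 15.7 and 15.2 RPKM against 3.45, 4.55 and 3.86 RPKM (log2 fold change 2.004 ± 0.23, adjusted p = 0.0675). It had the closest D391N replicates of this group, and it exceeded the coding transcript ENST00000440859, at 11.8, 9.11 and 14.4 RPKM against 9.55, 9.96 and 11.1 RPKM, in D391N only. ENST00000507475 of ETFDH, a dehydrogenase of the mitochondrial electron transfer chain, was at 6.60, 21.2 and 7.98 RPKM against 0.594, 0.289 and 0.850 RPKM (log2 fold change 4.04 ± 0.55, adjusted p = 0.0703), about 7.49-fold higher against a floor of 3 reads. Another ETFDH member, ENST00000436096, was at 10.2, 20.6 and 8.56 RPKM against 2.94, 3.43 and 1.54 RPKM (log2 fold change 2.24, adjusted p = 0.118), and the coding ENST00000307738 at 7.49, 7.02 and 14.3 RPKM against 11.8, 12.9 and 8.43 RPKM. Both ETFDH members were above the controls in every D391N library while this coding transcript overlapped.

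Of the members of at least 5 RPKM below the controls without overlap, the 5 with the smallest p belonged to EEF1A1, CENPV, KRT8, MACF1 and PCNX1. ENST00000490569 of EEF1A1, with the retained intron 6, was at 28.1, 7.36 and 16.4 RPKM in D391N cells and 842, 613 and 318 RPKM in control cells (log2 fold change -5.18 ± 0.57, adjusted p = 0.0624). ENST00000488500, with the retained intron 4, was at 1002, 844 and 1079 RPKM against 787, 401 and 642 RPKM (log2 fold change 0.72, adjusted p = 0.336). The former lay below the controls in every D391N library and the latter above them, while the coding ENST00000356303 was at 3059, 2174 and 1819.9 RPKM against 3476, 4161 and 5081 RPKM (log2 fold change -0.87). Another member of the gene, ENST00000491404, was at 36.5, 0.130 and 1.42 RPKM against 119, 478 and 540.2 RPKM (log2 fold change -7.07, adjusted p = 0.153) and the remaining one, ENST00000495333, at 110.1, 374 and 294 RPKM against 163, 236 and 256 RPKM (0.10). Levels of isoforms that share most of their exons depend on each other, and EEF1A1 has near-identical copies elsewhere in the genome, so that their split is uncertain.

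ENST00000472570 of CENPV, a centromere protein, was at 1.41, 1.64 and 2.37 RPKM against 10.2, 23.1 and 22.7 RPKM (log2 fold change -3.24 ± 0.40, adjusted p = 0.0675). The D391N libraries had only 0.81, 2.17 and 4.32 reads for it. ENST00000549176 of KRT8, a keratin of simple epithelia, was at 17.2, 19.7 and 14.99 RPKM against 43.7, 54.9 and 40.9 RPKM (log2 fold change -1.42 ± 0.24, adjusted p = 0.0939), and the coding ENST00000546900 of KRT8 at 44.3, 7.70 and 26.6 RPKM against 60.97, 58.7 and 50.6 RPKM (log2 fold change -1.43, adjusted p = 0.288). In KRT8 the members and coding transcripts were both lower in D391N, with a ratio change of -0.28 (adjusted p = 0.708).

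ENST00000472385 of MACF1, which links microtubules to actin and whose member holds introns 9 and 10 of 93, was at 8.95, 5.60 and 6.90 RPKM against 18.2, 24.9 and 30.2 RPKM (log2 fold change -1.75 ± 0.30, adjusted p = 0.0945). The coding ENST00000361689 of MACF1 was at 16.8, 21.2 and 20.2 RPKM against 17.4, 16.9 and 16.05 RPKM (log2 fold change 0.20), and another member, ENST00000485063, at 30.7, 62.5 and 21.1 RPKM against 25.99, 10.3 and 4.14 RPKM (1.72, adjusted p = 0.278). ENST00000556846 of PCNX1 was at 4.68, 5.17 and 4.49 RPKM against 10.5, 13.3 and 12.2 RPKM (log2 fold change -1.30 ± 0.23, adjusted p = 0.0981). Members of 1 gene thus differed in sign in MACF1 as in EEF1A1.

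**Figure D4:**
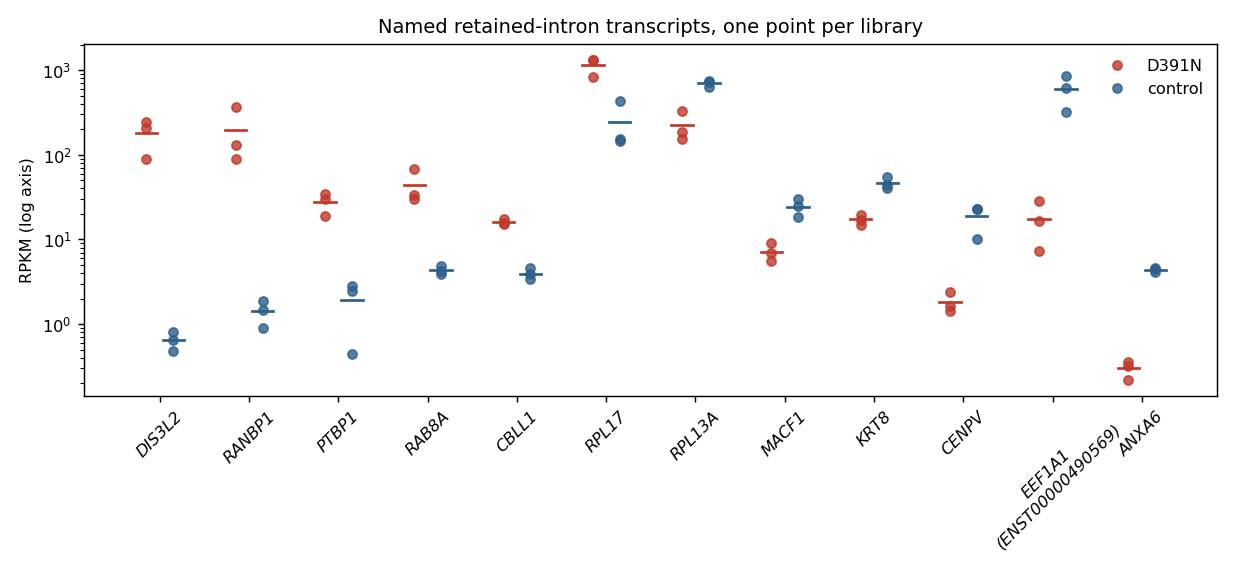
RPKM on a log axis of 12 named retained-intron transcripts in the 3 D391N (red) and 3 control (blue) libraries, with a point for each library and a line at the mean. In all 12 the D391N values lie wholly above or wholly below the control values, and only DIS3L2, RANBP1 and ANXA6 passed the adjusted threshold.

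The 10 most abundant members came from genes of translation, glycolysis and the nucleolus. ENST00000582736 of the ribosomal protein gene RPL23A had the highest mean, 1246 RPKM, and was at 1269, 1306 and 1651 RPKM in D391N cells and 1189, 967 and 1094 RPKM in control cells (log2 fold change 0.37 ± 0.31, adjusted p = 0.549). The summed coding transcripts of RPL23A were at 1202, 112 and 277 RPKM against 1487, 1156 and 1209 RPKM, so that the share of the members was 51.4, 92.1 and 85.6% of the gene sum in D391N cells and 44.6, 45.7 and 47.6% in control cells (log2 ratio change 2.30 ± 0.78, adjusted p = 0.239). The coding level was lowest in D391N replicate 2, where the member was above every control.

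ENST00000584364 of RPL17 was at 1304, 1319 and 819.7 RPKM against 146, 152 and 436 RPKM (log2 fold change 2.40 ± 0.50, adjusted p = 0.124; log2 ratio change 2.67 ± 0.48, adjusted p = 0.115), with no overlap. Of its bases 2.10% lie outside coding-transcript exons, and control replicate 3 stood apart from the other controls. ENST00000474171 of RPL13A, whose intron with SNORD34 is printed above, was at 330.4, 154 and 187 RPKM against 624, 739 and 731 RPKM (log2 fold change -1.72 ± 0.36, adjusted p = 0.123), also with no overlap, and the ratio of the gene's members to its coding transcripts changed by -0.25 (adjusted p = 0.833).

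In 3 of these genes D391N replicate 2 or replicates 2 and 3 carried the difference. ENST00000568743 of the pyruvate kinase gene PKM was at 599, 2511 and 749.5 RPKM against 572, 564 and 612 RPKM, ENST00000523339 of the nucleolar chaperone gene NPM1 at 336, 1809 and 1379.8 RPKM against 401, 376 and 436 RPKM, and ENST00000561775 of RPL4 at 454, 975 and 873 RPKM against 511, 492 and 502 RPKM. The conditions overlapped for all 3 members. The members of EEF2, an elongation factor (680.5, 447 and 364 RPKM against 809, 737 and 873 RPKM), and EIF4A1, an initiation helicase (823, 579 and 425 RPKM against 441, 375 and 374 RPKM), did not pass the test (adjusted p = 0.304 and 0.403), nor did that of RPS27A, a ubiquitin fusion (516, 352 and 397 RPKM against 531, 574 and 452 RPKM; log2 fold change -0.31, 0.23 after quantile normalization).

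Ranked by the p of an increase in the ratio to the coding transcripts, the 5 first genes were RANBP1, DIS3L2, PLPP1, TUBG1 and KRTCAP2, and larger increases with higher p are given for other genes, such as RPL17. ENST00000588056 of TUBG1, the tubulin of microtubule-organising centres, holds introns 4, 8 and 9 of 10 and was at 28.7, 26.5 and 19.3 RPKM in D391N cells and 1.55, 2.39 and 4.98 RPKM in control cells (log2 fold change 3.16 ± 0.44, adjusted p = 0.0741; log2 ratio change 3.02 ± 0.51, adjusted p = 0.112). Its coding ENST00000251413 was at 32.5, 22.3 and 29.2 RPKM against 65.3, 59.4 and 37.9 RPKM (log2 fold change -0.93, adjusted p = 0.211). The member was above and the coding transcript below the controls in every D391N library, and the controls had 2.72, 2.91 and 5.02 reads. ENST00000520263 of PLPP1, a lipid phosphatase, was at 2.69, 6.30 and 5.98 RPKM against 1.19, 0.860 and 1.66 RPKM (log2 ratio change 2.63 ± 0.43, adjusted p = 0.112). KRTCAP2, a subunit of the oligosaccharyltransferase, had a ratio change of 1.78 with a member at 3.41, 3.16 and 2.02 RPKM against 2.84, 2.65 and 1.88 RPKM, so that its coding transcripts and not the member differed.

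The 5 decreases of the ratio with the smallest p were those of ARID3A, RPL8, CEBPZ, P4HA1 and SLC35B1, with log2 changes from -1.84 to -2.82 with adjusted p of 0.112 to 0.115. ENST00000526668 of RPL8 was at 16.4, 0.864 and 12.8 RPKM against 90.7, 147 and 186 RPKM and ENST00000585733 of ARID3A, a DNA-binding regulator, at 1.02, 0.549 and 0.562 RPKM against 3.92, 5.41 and 4.32 RPKM. ENST00000464310 of P4HA1, a collagen prolyl hydroxylase subunit, was at 0.309, 0.483 and 0.860 RPKM against 3.95, 4.86 and 10.7 RPKM and ENST00000489306 of CEBPZ at 2.44, 1.43 and 1.40 RPKM against 8.40, 5.02 and 5.55 RPKM. The D391N values of these 4 members were below every control, while ENST00000508749 of SLC35B1, at 3.55, 0.536 and 1.45 RPKM against 5.78, 7.53 and 3.13 RPKM, overlapped. Their D391N libraries had 0.62 to 4.15 reads for P4HA1, 1.87 to 3.91 for ARID3A, 0.63 to 8.69 for RPL8 and 5.17 to 8.14 for CEBPZ. Values so low make these folds uncertain. The coding ENST00000527914 of RPL8 was lower too (log2 fold change -4.84), while its coding ENST00000532702, ENST00000262584 and ENST00000528957 had -0.24, -0.07 and -0.06.

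Each list of splicing genes below held members, whether more than other genes was not tested, and none of those lists was tested as a group. Beside the counts at an unadjusted p under 0.05 stand 17.6% of all transcripts and 13.99% of all members. SR proteins, which bind exonic enhancers, had 33 members in 11 genes, with a median log2 fold change of -0.16 (14 higher, 19 lower; 3 at an unadjusted p under 0.05, or 9.09%), which was 0.03 without D391N replicate 2. The most abundant, ENST00000556330 of SRSF5, was at 176, 16.6 and 29.6 RPKM against 84.8, 62.3 and 60.01 RPKM (log2 fold change -0.62, adjusted p = 0.719), and D391N replicate 1 stood above the others. The members of SRSF3, SRSF7 and SRSF11 had -0.24, -0.23 and -0.39, and all 4 reversed on leaving out a D391N library.

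Splicing kinases and genes known for introns detained in the nucleus had 88 members in 18 genes, with a median of 0.19 (50 higher, 38 lower; 15 at an unadjusted p under 0.05, or 17.05%). The median was 0.091 without D391N replicate 2, 0.073 without control replicate 3 and up to 0.25 without other libraries. Of these members 18.2% lay wholly above and 7.95% wholly below the controls (background 10.1% and 15.6%). The median ratio change of their 18 genes was -0.05, with 9 higher and 6 (33.3%) at an unadjusted p under 0.05, beside 13.5% over all genes with members. ENST00000578491 of DDX5, an RNA helicase, holds 3 whole introns and was at 376, 503 and 609 RPKM in D391N cells and 258, 202 and 185 RPKM in control cells (log2 fold change 1.19 ± 0.30, adjusted p = 0.160), with no overlap. It made up part of a retained_intron share of 63.99, 60.5 and 64.5% of the gene sum in D391N cells and 56.6, 59.8 and 63.97% in control cells. The ratio of the DDX5 members to the coding transcripts changed by 0.45 (adjusted p = 0.582). The members of PNN and LUC7L3, both splicing cofactors, were at 122, 302 and 90.2 RPKM against 68.3, 58.1 and 77.7 RPKM and 41.005, 346 and 127 RPKM against 29.6, 42.6 and 55.5 RPKM, and that of the SR protein kinase SRPK1 at 108, 77.003 and 49.6 RPKM against 31.996, 54.7 and 53.9 RPKM. In PNN D391N lay above every control, and in LUC7L3 and SRPK1 the conditions overlapped.

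The hnRNP genes, whose proteins package nascent RNA, had 60 members in 17 genes with a median of -0.05 (0.02 after median centring, 0.024 without D391N replicate 1 and 0.050 without control replicate 2), and the core spliceosome 58 in 17 with -0.11. At an unadjusted p under 0.05 there were 11 in each (18.3% and 18.97%), near the 17.6% of all transcripts. ENST00000504796 of HNRNPAB was at 107, 19.1 and 29.04 RPKM against 168, 103 and 74.2 RPKM, lowest in D391N replicate 2. The member of the U2 branch-point factor SF1 was at 108, 99.6 and 76.2 RPKM against 48.1, 66.8 and 73.7 RPKM, with no overlap (log2 fold change 0.60, adjusted p = 0.32), and that of the Sm protein gene SNRPG at 93.6, 80.1 and 98.4 RPKM against 189, 165 and 107 RPKM, also with no overlap (-0.73, adjusted p = 0.273). ENST00000587136 of PTBP1, the polypyrimidine tract binding protein, was at 34.6, 18.9 and 30.3 RPKM against 2.84, 0.441 and 2.47 RPKM (log2 fold change 4.09 ± 0.67, adjusted p = 0.0902). Each control had under 3 reads, and against a floor of 3 reads the PTBP1 member was about 7.29-fold higher.

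Genes of RNA decay and uridylation had 51 members in 21 genes, with a median of 0.05 (26 higher, 25 lower; -0.07 without D391N replicate 2), and the DIS3L2 member was the 1 that passed. ENST00000510046 of the decapping enzyme gene DCP2 was at 33.4, 63.7 and 31.97 RPKM against 10.2, 9.62 and 13.8 RPKM (log2 fold change 1.88 ± 0.34, adjusted p = 0.104), with no overlap. ENST00000569764 of the nonsense-mediated decay kinase gene SMG1, of which 78.0% is intronic and which holds 2 whole introns, was at 17.4, 23.6 and 20.2 RPKM against 15.5, 20.6 and 16.1 RPKM (0.23, adjusted p = 0.657). ENST00000478840 of UPF3B was at 4.25, 63.4 and 18.3 RPKM against 0.857, 5.53 and 6.65 RPKM (2.38, adjusted p = 0.321) and overlapped. The SMG1 member had 1277 to 2615 reads and hardly varied, whereas that of UPF3B had 4.84 to 482.

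The cytosolic ribosomal protein genes had 168 members in 67 genes, with a median of -0.07 (0.00 after median centring, 0.0089 without control replicate 2; 73 higher, 95 lower; 27, or 16.1%, at an unadjusted p under 0.05). For the ratio to the coding transcripts their median change was 0.56, with 48 of 66 genes higher and 18 (27.3%) at an unadjusted p under 0.05, beside 0.11 and 13.5% over all genes with members. None of the 66 passed the adjusted threshold. The median over single members was thus near 0, while the median over gene sums of the ratio to the coding sum was not. How far this ratio median depends on single libraries was not tested. Over all genes with members it fell to 0.0033 without D391N replicate 2.

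Genes with exon-intron reads in the study's CLIP table of RNAs bound by D391N had 54 members in 24 genes, with a median of -0.21 (21 higher, 33 lower; 15, or 27.8%, at an unadjusted p under 0.05, 12 of them lower, against 17.6% of all transcripts). This median was -0.41, -0.38 and -0.11 when D391N replicates 1, 2 and 3 were left out in turn, and -0.36 and -0.074 when control replicates 1 and 2 were. For the ratio to the coding transcripts the median change of 23 of these genes was 0.08, with 15 higher and 8.70% at an unadjusted p under 0.05. Genes with any window in that table had 915 members in 438 genes, with a median of -0.07 (0.02 after quantile normalization) and 137 (14.97%) at an unadjusted p under 0.05, ANXA6 being the 1 past the threshold. The table was chosen on cells with the same construct and may be held here only in part. ENST00000502944 of MATR3, a nuclear matrix protein, was at 311, 464 and 464 RPKM against 165, 154 and 287 RPKM (1.07, adjusted p = 0.214) and ENST00000492865 of HNRNPK at 216, 88.2 and 87.5 RPKM against 128, 188 and 167 RPKM. ENST00000477325 of RPSA was at 7.42, 1.40 and 195 RPKM against 922, 1098 and 529.6 RPKM (-5.96, adjusted p = 0.172) and ENST00000492719 of GAPDH at 363, 145 and 270.2 RPKM against 432, 418 and 436 RPKM (-0.82). Each D391N library was above the controls for MATR3 and below them for RPSA and GAPDH, and for HNRNPK the conditions overlapped. Only 14 members were themselves listed in the table, and their median was 0.14.

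Small nucleolar RNAs are cut from introns, so a member that keeps such an intron overlaps the snoRNA. Exons of 65 members in 37 genes held an annotated snoRNA, with a median log2 fold change of -0.12 (26 higher, 39 lower; 13, or 20%, at an unadjusted p under 0.05, against 17.6% of all transcripts). It was -0.19 without control replicate 1 and -0.27 without control replicate 3. The 56 distinct snoRNAs included 50 that were themselves tested, with a median of -1.88 (44 lower). The 60 members that held those had -0.20 (37 lower). Of all 54671 tested transcripts 29640 were lower, with a median of -0.07. Median deviations of the snoRNAs were 0.83, -2.62 and -1.07 in D391N and 1.16, 0.73 and 1.11 in the controls, and those of their members 0.04, -0.16 and -0.17 in D391N and 0.22, 0.17 and -0.03 in the controls. The snoRNAs were lowest in D391N replicates 2 and 3, and the members varied far less. In these libraries the summed level of all tested transcripts was also lowest, and its part in the snoRNA values was not tested.

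SNORD34 in the printed intron of RPL13A was at 612, 4.33 and 3.75 RPKM against 289.9, 167 and 182 RPKM (log2 fold change -3.24, adjusted p = 0.397), and its D391N replicate 1 was above every control while the member was below them in all 3. SNORA64, in a member of RPS2, was at 418, 12.7 and 118 RPKM against 765, 1145 and 1105 RPKM, and the member ENST00000533872 at 13.03, 4.59 and 7.87 RPKM against 25.2, 21.5 and 25.01 RPKM. SNORA21, in a member of RPL23, was at 439, 1.76 and 81.7 RPKM against 549, 385 and 599.7 RPKM and the member ENST00000584056 at 9.17, 32.7 and 18.96 RPKM against 10.8, 4.89 and 10.99 RPKM. In RPS2 both were below every control in each D391N library and lowest in D391N replicate 2. In RPL23 the snoRNA was lowest and the member highest in D391N replicate 2. How reads of free snoRNA and of a member were divided was not tested.

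Letters of the C box (NTGATGN, with A or G first and A or T last) in the first 25 bases, together with those of the D box (CTGA) in the last 15, read on the transcribed strand only, were found in 21 of the 56 snoRNAs (37.5%), among them SNORD34, against 231 of 1460 annotated snoRNAs (15.8%). Both sets mix C/D box snoRNAs with others such as SNORA64, and the part of this mix in the difference was not tested. The C box letters were not found in SNORD68 and SNORD10, so the search also misses some. Members that held a miRNA were 23 in 14 genes, with a median of 0.12 (-0.067 without D391N replicate 1), DDX5 among them. Of these, 3 (13.04%) lay wholly above and 7 (30.4%) wholly below the controls, against 10.1% and 15.6% of all transcripts. Several of the 23 are overlapping isoforms of DDX5, so they are not independent.

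**Figure D5:**
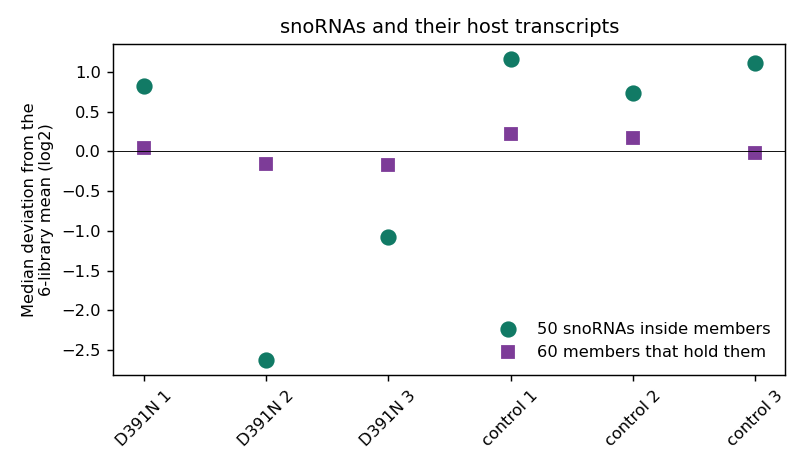
Median deviation from the 6-library mean (log2) in each library of 50 snoRNAs that lie inside members (circles) and of the 60 members that hold them (squares). The snoRNAs go from 1.16 in control replicate 1 to -2.62 in D391N replicate 2, and the members stay between -0.17 and 0.22.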

How the data were processed

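The authors sequenced rRNA-depleted total RNA as 50-bp single-end reads. Adapters were removed by cutadapt, alignment to the Ensembl transcriptome (GRCh38) was done with Segemehl, and transcript levels come from BitSeq, with versions not given in the sources used here. The deposited table holds 207167 transcripts in 6 libraries, each with a natural log value (the posterior mean for RPKM) and a posterior variance. Isoforms share reads under BitSeq, so their levels are not independent. Library totals were not used.

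Values were exponentiated and changed to log2(RPKM + 0.1), which understates changes of low transcripts. Those whose mean reached 1 RPKM, 54671 in all, were compared by limma 3.58.1 in R 4.3.3 (empirical Bayes with trend, Benjamini-Hochberg, adjusted p under 0.05), and 10937 ratios of a class to the protein_coding sum of a gene likewise. The ± of a log2 value is its standard error. Reads behind a value were taken as 1 / posterior variance, which covers counting and assignment error only. Biotypes, exons and sequences were matched by transcript identifier to GENCODE v44 lifted to GRCh37, with 186935 matched and 20232 not, 2688 of them tested. Introns under 20 nt were left out. Tables and plots used Python 3.11.15, pandas 2.3.3, numpy 2.4.6, scipy 1.17.1 and matplotlib 3.10.9.

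The members, gene lists and tests were chosen with earlier results of these data known. Named transcripts are the 10 most abundant members, all past the threshold, up to 5 with the smallest p in each direction among members of at least 5 RPKM without overlap, the 5 extreme ratios in each direction by p, up to 4 genes per list, those nearest to 1 RPKM and the 4 highest shares among genes of at least 20 RPKM. A transcript that this rule names is not reported here. On simulated data, 44.5% of 200 transcripts shifted by 3 (log2) were recovered with 2 false calls among 54671, and 70.5% of 200 ratios with 5 false calls among 10937. Alternatives were other pseudocounts, filters, scalings, a replicate block, no trend and each library left out, and the split by level beside the bases outside coding exons was added after seeing the data.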

Additional observations from a re-analysis of the deposited data

How the results depend on the processing

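Of 737 alternative values of 67 named transcripts, 673 kept direction and side of the threshold. The count of members past the threshold, 3, became 15 with a pseudocount of 1 RPKM (6 higher, 9 lower), 5 without the trend (2 and 3), and 0 to 689 on leaving out a library, 689 being without D391N replicate 1. The ratio count, 1, became 0 with a pseudocount of 0.01 RPKM, a replicate block or the top coding transcript alone, and 0 to 258 on leaving out a library. The median log2 fold change of members was 0.13 among those of at least 5 RPKM and ranged from -0.075 to 0.080 on leaving out a library. The median share, 19.7%, was 28.1% over retained_intron and protein_coding transcripts only, 13.3% weighted by length and 32.0% in genes with a member of at least 5 RPKM (19.3% to 19.97% without a library). The log2 ratio of DIS3L2 means, 5.10, was 5.47 over transcripts of at least 1 RPKM (4.996 to 5.22 without a library). The causes were not tested.

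Quantile normalization reversed RPS27A (0.23), ENST00000529435 of TAF1D (-0.030), OS9 (0.032) and THOC6 (-0.019). Leaving out a library reversed values near 0, with ranges of -0.70 to 0.016 for SRSF11, -0.69 to 0.023 for RPS12, -0.69 to 0.078 for SRSF7, -0.095 to 0.40 for ENST00000525928 and -0.42 to 0.31 for ENST00000529435 of TAF1D, -1.61 to 0.082 for SRSF5, -0.30 to 0.42 for THOC6, -0.45 to 0.12 for EFTUD2 and -0.56 to 0.28 for SRSF3. Replicate numbers did not pair the libraries (correlations 0.087, 0.055 and -0.11). With the replicate block 2 members passed, DIS3L2 and RANBP1. ANXA6 was also lost with a pseudocount of 0.01 RPKM (adjusted p = 0.0574), median centring (0.0524) and the block (0.171).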

Other observations

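Genes that make long non-coding RNA held 154 members in 104 genes, with a median log2 fold change of -0.18 (58 higher, 96 lower), beside -0.07 over all transcripts. At an unadjusted p under 0.05 there were 17, or 11.04%, against 17.6% of all transcripts and 13.99% of all members. None passed the adjusted threshold. These transcripts were chosen after their values were seen. Several of the most abundant belong to snoRNA host genes. ENST00000537024 of SNHG1 was at 187, 14.4 and 42.4 RPKM in D391N cells and 197, 175 and 156 RPKM in control cells (log2 fold change -1.85 ± 0.85, adjusted p = 0.315), ENST00000443799 of GAS5 at 79.4, 9.24 and 23.9 RPKM against 73.9, 32.6 and 70.2 RPKM, and ENST00000431043 of SNHG5 at 29.5, 3.84 and 10.5 RPKM against 36.6, 41.9 and 56.6 RPKM (log2 fold change -2.05, adjusted p = 0.219). All 3 were lowest in D391N replicate 2, and in replicate 1 they were near the controls.

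GAS5 had 14 members that did not move together. ENST00000422008 was at 18.7, 5.73 and 11.2 RPKM against 34.96, 38.9 and 31.2 RPKM (log2 fold change -1.71 ± 0.43, adjusted p = 0.159), with no overlap, whereas ENST00000444470 was at 12.3, 8.74 and 14.7 RPKM against 9.66, 2.31 and 2.14 RPKM (log2 fold change 1.65, adjusted p = 0.237).

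Members with an AT-AC intron numbered 8 in 7 genes (ARL16, SMYD2, ALG3, DAZAP2, HSBP1, E2F4 and CIAO2B), also named after their values were seen. ENST00000569301 of HSBP1, which binds a heat shock transcription factor, was at 43.7, 7.08 and 26.1 RPKM against 87.5, 87.8 and 59.9 RPKM (log2 fold change -1.94, adjusted p = 0.217), below every control in each D391N library, and ENST00000471645 of SMYD2 at 3.25, 2.50 and 3.38 RPKM against 3.16, 3.02 and 2.92 RPKM (-0.01). None of the 8 passed the threshold.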
